A study of Mus musculus with 4 samples.

Results

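The genes described are the messenger RNAs of 3 families of splicing proteins, namely the SR proteins, the heterogeneous nuclear ribonucleoproteins (hnRNPs) and the subunits of the SF3a and SF3b complexes. They were taken by symbol (Srsf followed by a digit, Hnrnp, and Sf3a or Sf3b followed by a digit), which gave 40 of the 24428 genes in the files: 11 SR proteins, 20 hnRNPs and 9 SF3 subunits. The data were read counts per gene from poly(A) RNA of mouse embryonic stem cells (129SvEv), grown in serum with LIF. All cultures were Smarca4 fl/fl and carried CreER, a Cre recombinase that tamoxifen switches on. One pair of libraries came from cells kept for 48 h in 4-hydroxytamoxifen at 0.8 uM (n = 2) and the other from cells given ethanol (n = 2), all collected 72 h after treatment began. The labels give all 4 libraries the same genotype entry, so the groups rest on the treatment. They do not name the promoter that drives CreER, nor say whether the replicates were cultured separately. The p-values therefore reflect only how far these libraries differ, which may be technical. Cells without loxP sites given the drug were not analysed here, so the drug, active Cre and loss of Smarca4 cannot be told apart.

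Splicing removes introns from the primary transcript. SR proteins carry RNA recognition motifs and a tail rich in arginine and serine, bind enhancer sequences in exons and help to recruit the spliceosome. hnRNPs coat nascent RNA and often oppose exon inclusion, so the balance of both families is known to set many alternative splicing choices. SF3a and SF3b belong to the U2 small nuclear ribonucleoprotein, which recognises the branch point upstream of the 3′ splice site. Many SR and hnRNP genes are also known to limit their own output through exons whose inclusion sends the transcript to nonsense-mediated decay, a form that counts per gene do not separate.

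Reads in genes numbered 13458463 and 17191445 in tamoxifen replicates 1 and 2 and 16130823 and 27086142 in ethanol replicates 1 and 2. Smarca4, the targeted gene, had 68.5 and 68.7 CPM with tamoxifen, against 328 and 409 CPM with ethanol. CPM are read counts scaled to a common library size with TMM factors. The count takes in exons outside the deleted part. The 8 stem cell markers examined, among them Pou5f1, Sox2 and Nanog, lay between 112 and 1602 CPM in every library. Of these 8, 2 (Klf4 and Dppa5a) were higher with tamoxifen and 1 (Tdgf1) was lower. Over all tested genes 21.5% were higher and 22.9% lower. Of 12 fibroblast markers none was without reads, and 8 of the 11 tested were higher with tamoxifen, against 21.5% of all tested genes. Their summed level was 911 and 1028 CPM in the tamoxifen libraries, against 493 and 423 CPM in the ethanol libraries. The part of this shift in the results below was not tested. In bulk RNA, fewer cells of a type and less RNA per cell cannot be told apart.

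Promoter sequence is shown for 6 members that the results turn on, the SR genes that were lower with and without correction for GC content (Srsf2, Srsf7) or without it only (Srsf3), the hnRNP A/B genes that moved in opposite directions (Hnrnpa3, Hnrnpa1), and the SF3 gene that was lower either way (Sf3a3). Each line holds the 250 bases before the RefSeq transcription start, 5′ to 3′ on the gene's strand, in build GRCm38.p6. They lie at chr11:116853095-116853344 (minus strand), chr17:80207306-80207555 (minus), chr17:29032410-29032659 (plus), chr2:75659009-75659258 (plus), chr15:103240147-103240396 (plus) and chr4:124714611-124714860 (plus), in the order of the lines. Capitals mark exact matches, on either strand, to CCAAT (the CCAAT box), CCGGAAG (an ETS core), GGGCGG (the GC box) and TATAAA (the TATA box); the NRF1 palindrome was also searched.
Srsf2: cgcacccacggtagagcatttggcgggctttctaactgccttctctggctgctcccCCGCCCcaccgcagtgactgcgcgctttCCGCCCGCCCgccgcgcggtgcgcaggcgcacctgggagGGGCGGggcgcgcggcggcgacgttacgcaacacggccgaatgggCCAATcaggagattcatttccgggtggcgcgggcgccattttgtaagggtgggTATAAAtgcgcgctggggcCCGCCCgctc
Srsf7: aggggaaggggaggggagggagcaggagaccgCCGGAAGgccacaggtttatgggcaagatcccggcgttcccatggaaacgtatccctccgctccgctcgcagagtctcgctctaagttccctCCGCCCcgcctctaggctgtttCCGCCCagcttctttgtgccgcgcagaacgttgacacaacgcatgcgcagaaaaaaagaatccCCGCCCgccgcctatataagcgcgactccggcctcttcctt
Srsf3: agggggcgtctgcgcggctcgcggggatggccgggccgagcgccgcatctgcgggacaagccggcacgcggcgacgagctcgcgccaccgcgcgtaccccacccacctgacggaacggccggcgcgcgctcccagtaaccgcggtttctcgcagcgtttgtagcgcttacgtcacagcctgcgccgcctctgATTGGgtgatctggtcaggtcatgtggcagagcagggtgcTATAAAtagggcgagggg
Hnrnpa3: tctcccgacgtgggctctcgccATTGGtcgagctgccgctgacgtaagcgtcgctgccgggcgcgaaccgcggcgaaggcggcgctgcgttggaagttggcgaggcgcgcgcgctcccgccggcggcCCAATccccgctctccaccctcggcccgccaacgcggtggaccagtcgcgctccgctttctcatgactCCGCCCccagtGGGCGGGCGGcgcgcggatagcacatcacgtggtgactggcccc
Hnrnpa1: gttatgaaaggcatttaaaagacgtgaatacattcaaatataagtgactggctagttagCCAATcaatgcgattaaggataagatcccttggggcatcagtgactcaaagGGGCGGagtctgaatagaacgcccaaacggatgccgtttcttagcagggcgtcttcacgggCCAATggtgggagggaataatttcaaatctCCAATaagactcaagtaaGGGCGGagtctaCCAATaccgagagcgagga
Sf3a3: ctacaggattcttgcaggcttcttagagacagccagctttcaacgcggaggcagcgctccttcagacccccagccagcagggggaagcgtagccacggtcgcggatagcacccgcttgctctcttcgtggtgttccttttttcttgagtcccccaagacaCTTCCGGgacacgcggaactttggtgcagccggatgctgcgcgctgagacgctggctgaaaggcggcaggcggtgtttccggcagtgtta

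The RefSeq promoter table held 36 of the 40 members, each taken at its first listed start. The GC box was present in 27 of them (75.0%), against 32.9% of all 27025 genes in the table, and stood in 10 of 11 SR promoters. The ETS core was found in 12 members (33.3%, against 7.05% of all genes), 6 of them among the 7 SF3 promoters held, the sequence of Sf3a3 above included. The CCAAT box occurred in 17 members (47.2%, against 34.5%), 12 of them hnRNP genes, and Hnrnpa1 carried 4 copies. The TATA box was present in 4 members (11.1%, against 13.0%), among them Srsf2 and Srsf3. The NRF1 palindrome matched 0 of the 36 exactly, and 0.781% of all genes. GC content of the 250 bases differed between the sets, with a median of 62.6% in the members and 52.0% in all genes, so motifs made of G and C are also more likely by composition. These are matches of letters, not measured binding sites.

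The comparison asks how transcripts of these families differ 72 h after the start of tamoxifen. The treatment was meant to delete Smarca4, an ATPase of BAF chromatin remodeling complexes. All 40 members passed the filter on low counts. Of these, 16 fell and 3 rose with tamoxifen at an adjusted p under 0.05 (edgeR quasi-likelihood test over 14479 genes), and 21 did not pass. Over all genes tested, 22.9% were called lower and 21.5% higher (44.5% in either direction), against these 16 and 3 of 40 members. Their median log2 fold change was -0.24, against -0.01 over all genes tested. Changes were of moderate size: no member was called with a change of at least 2-fold, whereas 12.6% of all tested genes were. Both tamoxifen libraries lay below both ethanol libraries for 20 members and above them for 7, where 37.0% of all tested genes lay on each side. Under scaling by total counts, which moved the median of all genes to 0.12, 10 members were lower and 5 higher, among 6602 genes called.

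**Figure D1:**
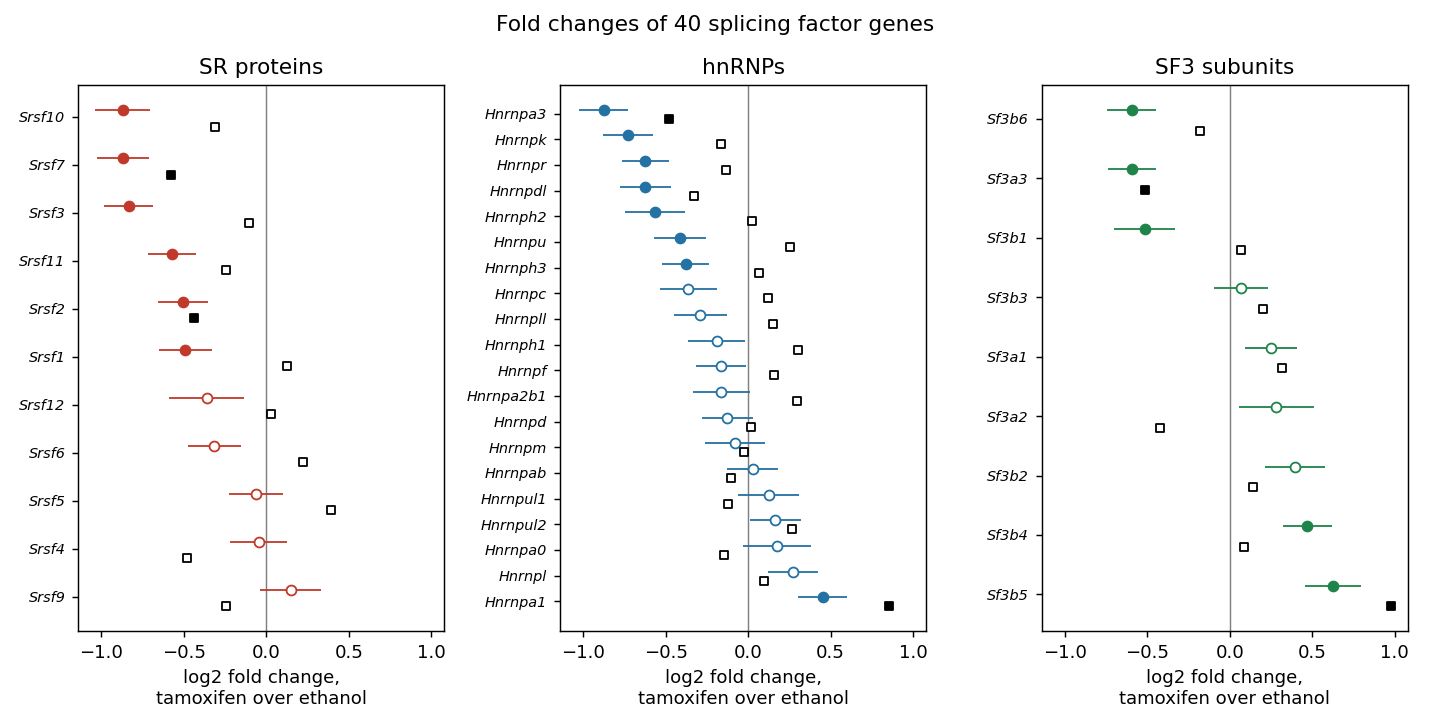
Log2 fold change (tamoxifen over ethanol) of each of the 40 members, by family; coloured circles are the edgeR estimates with 1 SE either way, black squares the estimates with each library's GC trend removed, and filled symbols passed an adjusted p under 0.05. SR protein genes lie mostly left of 0, SF3 genes on both sides, and only 6 squares are filled.

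Among SR protein genes, 6 of 11 were lower with tamoxifen and none was higher, against 22.9% of all tested genes lower and 21.5% higher. The 6 were Srsf1, Srsf2, Srsf3, Srsf7, Srsf10 and Srsf11. Summed over the family, the level was 2361 and 2443 CPM in the tamoxifen libraries, against 3260 and 3615 CPM in the ethanol libraries. This was 69.9% of the ethanol mean, against 91.6% for all tested genes summed. The median log2 fold change of the 11 genes was -0.49. Their median transcript GC content was 44.9%, against 50.8% for all tested genes, and genes of low GC content were mostly lower (below). With GC correction 2 of the 11 were lower and 0 higher, against 9.64% and 9.48% of all genes in that fit. When either tamoxifen library was left out of the uncorrected test, fewer of the 6 passed, and fewer of all tested genes did too.

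Srsf3, a small SR protein that also acts in mRNA export, had 205 and 199 CPM with tamoxifen, against 357 and 364 CPM with ethanol. The groups lay well apart and each pair was tight, with a log2 fold change of -0.84 ± 0.15 (SE; edgeR quasi-likelihood test, adjusted p = 0.00103). Srsf7, a close relative of Srsf3 with a zinc knuckle, had 181 and 221 CPM with tamoxifen, against 356 and 378 CPM with ethanol. Both tamoxifen libraries were again below both ethanol libraries, by -0.87 ± 0.16 on the log2 scale (edgeR quasi-likelihood test, adjusted p = 0.00125). Srsf10, known as a splicing repressor when dephosphorylated, had 138 and 154 CPM with tamoxifen, against 232 and 302 CPM with ethanol (log2 fold change -0.87 ± 0.17, edgeR quasi-likelihood test, adjusted p = 0.00162). Its ethanol pair was spread more widely, without overlap with the tamoxifen pair. Among all tested genes, 9.70% had a lower log2 fold change than Srsf10. All 3 genes passed whichever library was left out of this test. With correction for GC content Srsf3 (-0.10) and Srsf10 (-0.31) did not pass with all libraries, and Srsf7 passed (-0.58) but not without either tamoxifen library.

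The other 3 SR genes that fell did so by less. Srsf11, an SR-related protein, had 240 and 246 CPM with tamoxifen, against 353 and 369 CPM with ethanol (-0.57 ± 0.15 log2, edgeR quasi-likelihood test, adjusted p = 0.00830). Srsf2, which binds exonic enhancers and had the highest level of the family per kilobase of transcript when averaged over both groups (234 CPM per kb with tamoxifen and 332 CPM per kb with ethanol, where Srsf7 was higher at 353 CPM per kb), had 460 and 428 CPM with tamoxifen, against 662 and 600 CPM with ethanol. It changed by -0.51 ± 0.15 on the log2 scale (adjusted p = 0.0181 in that edgeR test). Srsf1, the founding member of the family, had 527 and 531 CPM with tamoxifen, against 675 and 813 CPM with ethanol (-0.49 ± 0.16, edgeR quasi-likelihood test, adjusted p = 0.0247). None of these 3 overlapped between the groups, where 37.0% of all tested genes lay wholly on that side. Srsf11 and Srsf2 did not pass without tamoxifen replicate 1 or without tamoxifen replicate 2, and Srsf1 in addition not without ethanol replicate 2. Srsf1 and Srsf2 also did not pass with total counts. The remaining Srsf4, Srsf5, Srsf6, Srsf9 and Srsf12 had log2 fold changes between -0.36 and 0.15 and did not pass. Srsf12 was the scarcest member, at 4.10 and 3.36 CPM with tamoxifen, against 5.02 and 4.57 CPM with ethanol.

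**Figure D2:**
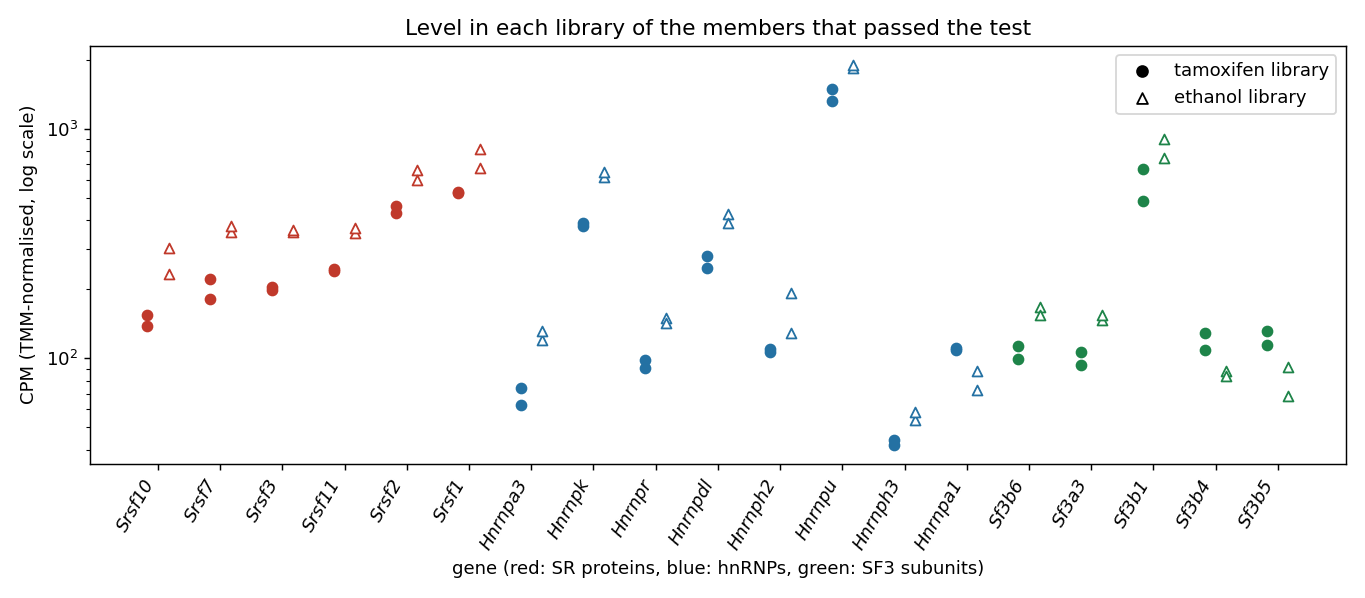
Level of the 19 members that passed the test in each library, in TMM-normalised CPM on a log axis; filled circles are the 2 tamoxifen libraries and open triangles the 2 ethanol libraries. For each of these genes the circles lie wholly below or, for Hnrnpa1, Sf3b4 and Sf3b5, wholly above the triangles. Over all tested genes, called or not, 37.0% lay wholly on each side.

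Of the 20 hnRNP genes, 7 fell and 1 rose with tamoxifen, and 12 did not pass, against 22.9% lower and 21.5% higher over all tested genes. The 7 were Hnrnpa3, Hnrnpk, Hnrnpr, Hnrnpdl, Hnrnph2, Hnrnpu and Hnrnph3, and the 1 that rose was Hnrnpa1. The summed level of the family was 8555 and 8785 CPM in the tamoxifen libraries, against 9402 and 10398 CPM in the ethanol libraries. This was 87.6% of the ethanol mean, close to the 91.6% for all tested genes summed. With total counts 4 were lower and 2 higher, among 6602 genes called in that fit. More hnRNP genes were called when ethanol replicate 1 was left out, and fewer when any other library was. The number called over all tested genes moved the same way.

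Hnrnpa3, a member of the hnRNP A/B group, had 62.8 and 74.4 CPM with tamoxifen, against 120 and 131 CPM with ethanol, the largest decrease among the 40 members (log2 fold change -0.88 ± 0.15, SE; edgeR quasi-likelihood test, adjusted p = 0.000882). Hnrnpk, which binds C-rich RNA and DNA through KH domains, had 378 and 388 CPM with tamoxifen, against 619 and 650 CPM with ethanol (-0.73 ± 0.15, edgeR quasi-likelihood test, adjusted p = 0.00244). Both passed whichever library was left out of this test. With correction for GC content Hnrnpk did not pass with all libraries (-0.17), and Hnrnpa3 passed (-0.48) but not without either tamoxifen library. Part of an Hnrnpk exon overlaps Rmi1 on the opposite strand, and the strand setting of the counts is not given in the sources used here. Among genes in the files, exons of Hnrnpab, Sf3a2, Sf3b3 and Srsf4 also overlap a gene on the opposite strand. Those of Hnrnpm overlap a gene on the same strand, but none of these 5 passed. Exons of Hnrnpa3, Hnrnpr, Sf3b4 and Srsf1, which did pass, each overlap an annotated gene that is not in the files. Hnrnpr had 98.3 and 91.0 CPM with tamoxifen, against 150 and 142 CPM with ethanol, and Hnrnpdl, a relative of Hnrnpd, had 280 and 248 CPM with tamoxifen, against 424 and 389 CPM with ethanol. Both fell by 0.62 on the log2 scale (edgeR quasi-likelihood test, adjusted p = 0.00447 and 0.00651). Their groups did not overlap, where 37.0% of all tested genes lay wholly on that side. Neither passed without tamoxifen replicate 2.

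The calls of Hnrnph2, Hnrnpu and Hnrnph3 lay closer to the threshold. Hnrnpu, the nuclear scaffold protein that binds long noncoding RNAs such as Xist, had 1318 and 1497 CPM with tamoxifen, against 1849 and 1898 CPM with ethanol (log2 fold change -0.41 ± 0.16, edgeR quasi-likelihood test, adjusted p = 0.0464). Hnrnph2, which binds G-rich tracts, had 107 and 110 CPM with tamoxifen, against 129 and 192 CPM with ethanol, a pair that itself differed widely (-0.56 ± 0.18, adjusted p = 0.0262 in the same edgeR test). Hnrnph3, of the same subfamily, had 42.1 and 44.2 CPM with tamoxifen, against 53.6 and 58.5 CPM with ethanol (-0.38 ± 0.14, adjusted p = 0.0489 in the same edgeR test). These 3 did not pass with total counts, nor when ethanol replicate 2 or either tamoxifen library was left out. Hnrnpu and Hnrnph3 also did not pass with upper-quartile factors or with no filter on low counts. Hnrnph3 in addition did not pass with DESeq2, limma voom or a stricter filter.

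Hnrnpa1, a widely studied repressor of exon inclusion, went the other way, with 108 and 111 CPM with tamoxifen, against 72.8 and 87.6 CPM with ethanol (log2 fold change 0.45 ± 0.15, SE; edgeR quasi-likelihood test, adjusted p = 0.0263). It did not pass without ethanol replicate 1 or without either tamoxifen library. The ratio of Hnrnpa1 to Hnrnpa3 counts, which needs no scaling between libraries, was 1.73 and 1.498 in the tamoxifen libraries, against 0.604 and 0.667 in the ethanol libraries, a 2.53-fold difference. The pair was chosen after its values were seen, as genes that moved in opposite directions, so the separation is no independent support. The transcripts have nearly the same GC content, both 44.8%. No test was run on the ratio; the smallest two-sided p of an exact permutation test of 2 libraries against 2 is 0.333. Both counts are uncertain: 9 pseudogenes of Hnrnpa1 and 26 of Hnrnpa3 in the mouse annotation match their transcripts at 95% identity or more over at least 300 bases, and how reads of such copies were assigned is not given in the sources used here. Hnrnpf had 6 such pseudogenes, Srsf3 had 3, Hnrnpk and Srsf10 had 2 each, and no other member had more than 1. Among members that passed, some also matched genes other than pseudogenes to this extent. These were Srsf2 (Mettl23), Srsf3 (Gm12355), Hnrnpa3 (Gm6793) and Hnrnpr (Gm27022).

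Among the 12 hnRNP genes that did not pass was the most abundant of all members per length, Hnrnpa2b1. It stood at 741 CPM per kb with tamoxifen and 830 CPM per kb with ethanol, and its libraries held 1281 and 1173 CPM with tamoxifen, against 1189 and 1556 CPM with ethanol, so that the groups overlapped (log2 fold change -0.16 ± 0.17). The others, Hnrnpa0, Hnrnpab, Hnrnpc, Hnrnpd, Hnrnpf, Hnrnph1, Hnrnpl, Hnrnpll, Hnrnpm, Hnrnpul1 and Hnrnpul2, had log2 fold changes between -0.36 and 0.27.

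SF3 subunit genes moved both ways. Of 9, 3 fell (Sf3a3, Sf3b6 and Sf3b1), 2 rose (Sf3b5 and Sf3b4) and 4 did not pass. With only 9 genes, these counts lay near the shares over all tested genes, 22.9% lower and 21.5% higher. The summed level was nearly the same in both groups, at 2422 and 2638 CPM with tamoxifen, against 2523 and 2677 CPM with ethanol. This was 97.3% of the ethanol mean, against 91.6% for all tested genes summed. With either tamoxifen library left out, fewer SF3 genes passed, and fewer of all tested genes did too. Without ethanol replicate 1, more SF3 genes passed, and more of all tested genes did too.

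Sf3a3, a subunit of SF3a, had 93.7 and 107 CPM with tamoxifen, against 148 and 155 CPM with ethanol (log2 fold change -0.59 ± 0.15, SE; edgeR quasi-likelihood test, adjusted p = 0.00656). Sf3b6, the small subunit that contacts the branch point adenosine, had 113 and 99.6 CPM with tamoxifen, against 166 and 154 CPM with ethanol, a difference of the same size (-0.59 ± 0.15, edgeR quasi-likelihood test, adjusted p = 0.00677). Sf3b1, the large scaffold subunit that is often mutated in myeloid neoplasms, had 486 and 668 CPM with tamoxifen, against 749 and 902 CPM with ethanol. Its pairs were the widest of the 3 (-0.52 ± 0.18, edgeR quasi-likelihood test, adjusted p = 0.0370). Sf3b1 did not pass with total counts or upper-quartile factors, nor when ethanol replicate 2 or tamoxifen replicate 1 was left out. Sf3a3 did not pass without tamoxifen replicate 1, and Sf3b6 did not without tamoxifen replicate 2.

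Sf3b5, a small subunit of SF3b, had 115 and 132 CPM with tamoxifen, against 91.7 and 68.2 CPM with ethanol, the largest increase among the 40 members (log2 fold change 0.63 ± 0.17, SE; edgeR quasi-likelihood test, adjusted p = 0.0101). Sf3b4, which binds RNA upstream of the branch point, had 129 and 109 CPM with tamoxifen, against 88.3 and 83.4 CPM with ethanol (0.47 ± 0.15, edgeR quasi-likelihood test, adjusted p = 0.0221). The groups overlapped for neither gene, where 37.0% of all tested genes lay wholly on that side. Sf3b5 did not pass without tamoxifen replicate 2, and Sf3b4 not without tamoxifen replicate 1. Within SF3b, the ratio of Sf3b5 to Sf3b6 counts was 1.02 and 1.32 in the tamoxifen libraries, against 0.551 and 0.443 in the ethanol libraries. This 2.35-fold difference has no test here, and the pair was chosen after its values were seen. The Sf3b6 transcript has 44.6% GC, and Sf3b5 has 45.5% by its GENCODE transcript but 58.9% by its RefSeq span. The part of GC content in the difference was not tested. Sf3a1, Sf3a2, Sf3b2 and Sf3b3 had log2 fold changes between 0.07 and 0.40 and did not pass. Sf3b3, at 132 CPM per kb with tamoxifen and 126 CPM per kb with ethanol, was the most abundant of the family per length when averaged over both groups, although with ethanol alone Sf3b6 (136 CPM per kb) and Sf3b1 (133 CPM per kb) were higher. Sf3b5 was left aside because its annotated lengths disagree.

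**Figure D3:**
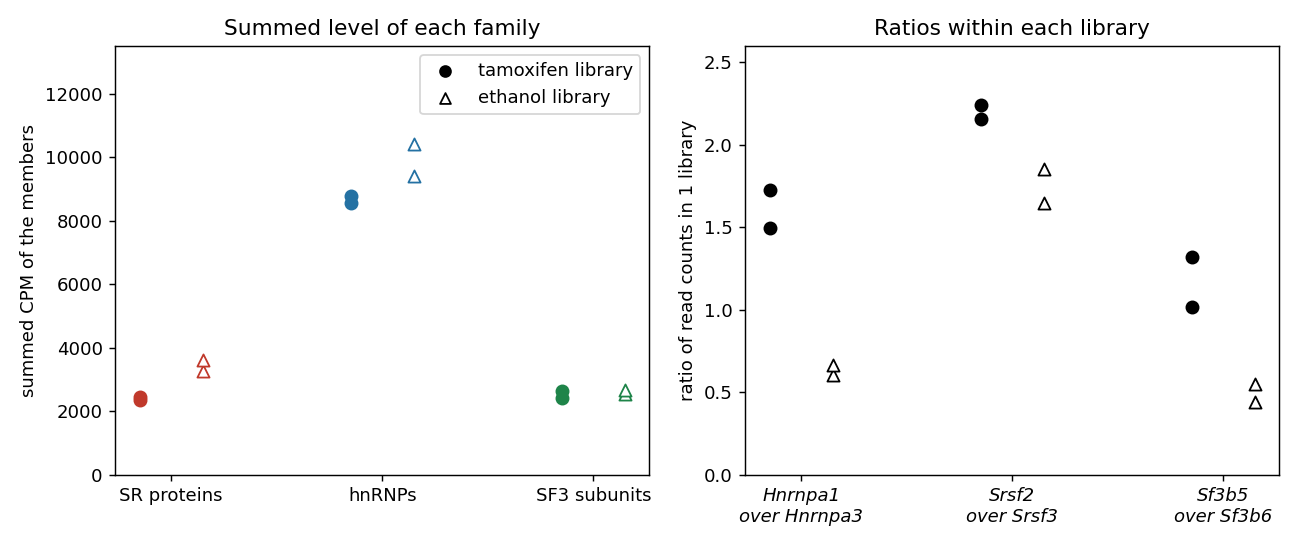
Left, summed CPM of the members of each family in each library; right, ratios of read counts of pairs of members within each library; filled circles are tamoxifen libraries and open triangles ethanol libraries. The SR sums (2361 and 2443 CPM with tamoxifen, against 3260 and 3615 CPM with ethanol) stand apart between the groups. The hnRNP sums also stand apart, while the SF3 sums overlap. Each ratio stands apart too, for pairs chosen after their values were seen. The ratio of Srsf2 to Srsf3 was 2.24 and 2.15 with tamoxifen, against 1.86 and 1.65 with ethanol. These counts are not corrected for GC content, which differs between the transcripts of Srsf2 and Srsf3. Without GC correction the log2 fold change was -0.51 for Srsf2 and -0.84 for Srsf3. With it the order turned, to -0.44 for Srsf2 and -0.10 (not called) for Srsf3. The part of GC content in this ratio was not tested.

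GC content of the transcript moved with these results. Spearman's rho between GC content and log2 fold change was 0.623 across the 40 members and 0.650 across 14393 tested genes, as a description of genes that share the same 4 libraries. Whether this trend arose in the cells or in library preparation was not tested. When tested genes were split into 3 equal groups by GC content, 24 members lay in the group of lowest GC content (31.2 to 47.6%). In that group 51.3% of all tested genes were called lower and 3.15% higher, with a median log2 fold change of -0.49. Of the 24 members there, 14 fell and 2 (Hnrnpa1 and Sf3b5) rose, with a median of -0.45. Sf3b5 lies there by its GENCODE transcript (45.5% GC) and would lie in the group of highest GC content by its RefSeq span (58.9% GC). The middle group held 9 members, of which 2 fell (Srsf2 and Sf3a3), where 14.0% of all genes were called lower and 13.7% higher, and the group of highest GC content held 7, of which 1 rose (Sf3b4). In the group of highest GC content 47.9% of all genes were called higher. The median transcript GC content was 45.7% for the members and 50.8% for all tested genes.

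**Figure D4:**
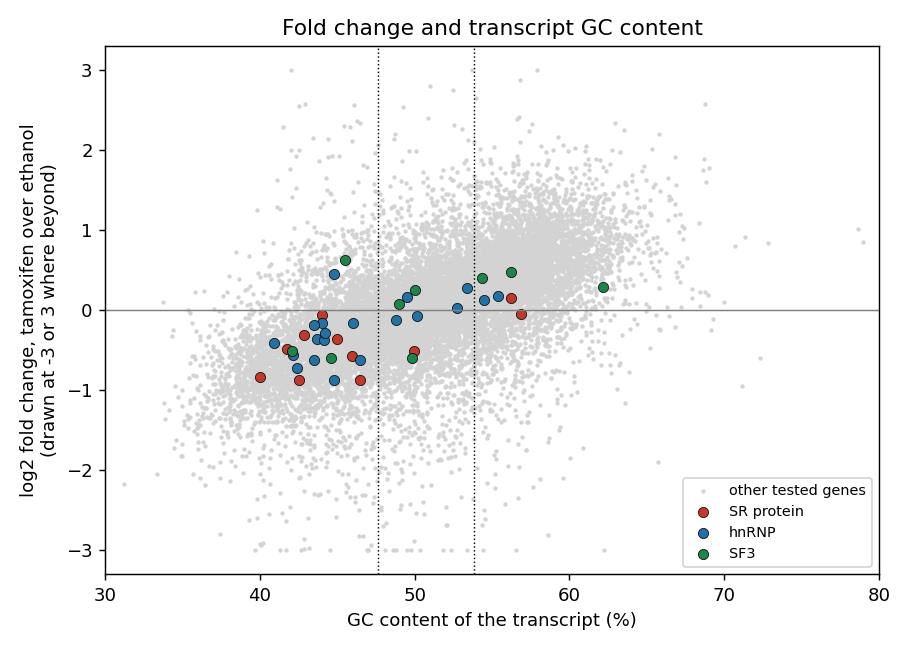
Log2 fold change (tamoxifen over ethanol) against GC content of the transcript (%), with members coloured by family and all other tested genes in grey; dotted lines part 3 equal groups of genes at 47.6 and 53.8% GC. Members follow the slope of the other genes, with Hnrnpa1 and Sf3b5 above it in the group of lowest GC content; Sf3b5 is drawn at the 45.5% GC of its GENCODE transcript, whereas its RefSeq span has 58.9%.

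With each library's GC trend removed, 4 members were lower and 2 higher, against 9.64% lower and 9.48% higher over all 14393 genes in that fit, and the median log2 fold change of the members was 0.03. All 6 had passed, in the same direction, without the correction. Among SR genes Srsf7 (-0.58 ± 0.15, adjusted p = 0.0163) and Srsf2 (-0.44 ± 0.14, adjusted p = 0.0481) passed this edgeR test, whereas Srsf3, whose GC content was the lowest among the 40, was at -0.10, Srsf10 at -0.31, Srsf11 at -0.25 and Srsf1 at 0.12. Among hnRNP genes Hnrnpa3 (-0.48 ± 0.14, adjusted p = 0.0323) and Hnrnpa1 (0.86 ± 0.14, adjusted p = 0.00143) passed it. Hnrnpdl was at -0.33, Hnrnpk at -0.17 and Hnrnpr at -0.13, and Hnrnph2, Hnrnph3 and Hnrnpu turned to 0.03, 0.07 and 0.25, none of them called. Among SF3 genes Sf3a3 (-0.52 ± 0.14, adjusted p = 0.0227) and Sf3b5 (0.98 ± 0.17, adjusted p = 0.00157) passed the corrected edgeR test, and Sf3b6 (-0.18), Sf3b1 (0.07) and Sf3b4 (0.09) did not. The corrected value of Sf3b5 rests on its transcript model, which is 3841 bases long at 45.5% GC in GENCODE, while the RefSeq gene spans 734 bases at 58.9% GC. With the RefSeq span, a choice made after seeing the data, it was at 0.09 and not called. Without tamoxifen replicate 1, and again without tamoxifen replicate 2, no member was lower in the corrected fit, and only Hnrnpa1 and Sf3b5 were called.

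Other genes of the splicing machinery were read from 6 lists with 102 members, all of them tested. The kinases and partners of SR proteins were lower in 7 of 14 cases and higher in none, against 22.9% lower and 21.5% higher over all tested genes, with a median log2 fold change of -0.34. Clk1 (-1.04 ± 0.16, SE) and Clk4 (-0.92 ± 0.15), kinases that phosphorylate SR proteins, and the SR-related Pnn (-0.70 ± 0.17) had the smallest adjusted p-values (0.000546, 0.000660 and 0.00493, edgeR quasi-likelihood test). With GC correction 2 of this list were lower and 1 higher, against 9.64% and 9.48% of all genes in that fit, and Clk1 (-0.38), Clk4 (-0.36) and Pnn (-0.22) were not called. Other regulators of splicing were lower in 10 of 31 cases and higher in 2, against the same 22.9% and 21.5%. Esrp2, an epithelial splicing regulator, had 36.2 and 33.6 CPM with tamoxifen, against 14.7 and 11.9 CPM with ethanol, and rose by 1.40 ± 0.17 on the log2 scale, while Mbnl2 (-1.09 ± 0.15) and Rbm39 (-1.02 ± 0.15) fell (edgeR quasi-likelihood test, adjusted p = 0.000142, 0.000291 and 0.000376). Esrp2 (1.03) and Rbm39 (-0.49) passed with GC correction, where 3 of the list were lower and 5 higher, against 9.64% and 9.48%.

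Core proteins of the U1 and U2 particles and the Sm ring were lower in 4 of 12 cases and higher in 3, against 22.9% lower and 21.5% higher over all tested genes, with Snrpe (-0.90 ± 0.18), Snrpd1 (-0.79 ± 0.15) and Snrpb2 (-0.79 ± 0.16) leading (edgeR quasi-likelihood test, adjusted p = 0.00190, 0.00157 and 0.00208). Factors of branch point and 3′ splice site recognition were split, 2 of 10 lower and 2 higher, close to those shares. U2surp was at -1.02 ± 0.15 and the helicase gene Dhx15 at -0.47 ± 0.15, while U2af2, whose protein binds the polypyrimidine tract, was at 0.54 ± 0.15 (edgeR quasi-likelihood test, adjusted p = 0.000376, 0.0236 and 0.0133). Of the tri-snRNP and catalytic factors 5 of 19 were lower and 2 higher, among them Prpf38a (-0.63 ± 0.15) and Sart1 (0.62 ± 0.16; edgeR quasi-likelihood test, adjusted p = 0.00478 and 0.00731). None of these 8 genes passed with GC correction, where the 3 lists together held 3 genes higher and 0 lower, against 9.48% higher and 9.64% lower over all genes.

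The exon junction complex and nonsense-mediated decay list had 4 of 16 members lower and 3 higher (1 and 1 with GC correction), against 22.9% and 21.5% of all tested genes (9.64% and 9.48% with GC correction). Upf3b, which links both, had 66.9 and 65.5 CPM with tamoxifen, against 157 and 150 CPM with ethanol (-1.21 ± 0.14, edgeR quasi-likelihood test, adjusted p = 0.000127; -0.66 with GC correction, adjusted p = 0.00613). Magohb fell by 0.91 and the decay factor gene Smg9 rose by 1.02 on the log2 scale (edgeR quasi-likelihood test, adjusted p = 0.00255 and 0.000548), at -0.24 and 0.39 and not called with GC correction. With all libraries and no correction, 32 of the 102 genes in the 6 lists were lower (31.4%) and 12 higher (11.8%), against 22.9% and 21.5% of all tested genes. With GC correction 6 of the 102 were lower and 10 higher, against 9.64% and 9.48%.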

How the data were processed

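The 4 poly(A) RNA-seq libraries were grouped by title. The deposited values are raw read counts per gene symbol. The 5 summary lines of each file were not used in sizes or tests. Reads assigned to no counted feature made up 37.6 and 35.0% of all reads listed in the tamoxifen libraries and 51.7 and 40.8% in the ethanol libraries. This share was higher in both ethanol libraries, and its part in the results was not tested. The submitters' processing notes name Bowtie 1.1.1, CASAVA 1.8.2, DESeq2, HTSeq and build mm9. For annotation, strand and reads with several matches, settings were not given in the sources used here.

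Counts were tested with edgeR 4.0.16 in R 4.3.3 (TMM factors, filterByExpr, robust quasi-likelihood test, group as the only term, Benjamini-Hochberg adjustment over 14479 genes, threshold 0.05). SE was the size of the log2 fold change divided by the square root of the F statistic. The edgeR test was also run on simulated counts with 200 genes changed, a common dispersion and no GC trend. That setting differs from these data, where 6441 genes were called, and the GC correction was not simulated. For GC correction, a loess curve (span 0.5, degree 1) of each library's deviation in log2 CPM on GC content was used as an offset. GC content and length are medians over GENCODE M21 transcripts, those paired with a RefSeq mRNA where there are any; 23535 of 24428 symbols matched directly and 506 by synonym. Copies were searched with blastn 2.17.0, and promoters come from RefSeq (GRCm38.p6). As alternatives, scaling used RLE, upper-quartile or total-count factors, filters were changed, DESeq2 1.42.0 and limma 3.58.1 voom were run, the replicate number entered as a block, the threshold was 0.01, and each library was left out.

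Members and lists were chosen with earlier results of these data known. Values per library are given for members that passed with no overlap of the groups (up to 8 per family) and for the most abundant of each family, and up to 3 genes with the smallest adjusted p are named from each other list, of which 1 gene is not reported here; Srsf12 and the ratios were chosen after their values were seen.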

Additional observations from a re-analysis of the deposited data

How the results depend on the processing

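Scaling by RLE factors called the same 19 members in the same directions. Of these 19, 18 passed with DESeq2, with limma voom and with the stricter filter, 17 with no filter, 16 with upper-quartile factors and 13 with total counts (10 lower and 5 higher in all, 4 and 2 of them hnRNP genes). At a threshold of 0.01, 10 members were lower (4 hnRNP genes) and 0 higher, among 3806 genes called. GC correction called 2752 genes and left 4 members lower (2 SR, 1 hnRNP and 1 SF3) and 2 higher (1 hnRNP and 1 SF3); with the RefSeq span of Sf3b5, 1 member and 0 SF3 genes were higher. With the replicate block all 19 calls stayed and 6 were added, giving 6 members higher (2 hnRNP, 4 SF3) among 8087 genes called, against 6441 without it. The replicate numbers are shared only as numbers, with a correlation of replicate deviations of 0.234 between the groups. With GC correction and the replicate block, 8 members were lower (2 hnRNP) and 7 higher (1 SR, 4 hnRNP). The replicate block thus changed counts, and the sources do not state a pairing.

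Leaving out 1 library, with or without GC correction, left 0 to 20 members lower and 1 to 6 higher: 0 to 7 SR genes lower and 0 to 1 higher, 0 to 10 hnRNP genes lower and 0 to 3 higher, 0 to 3 SF3 genes lower and 1 to 4 higher, and 896 to 7326 genes called in all. The lone library of a group is there assumed to vary like the other group.

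With GC correction 19 of the 40 members turned in direction, 5 of them called without it and 0 with it; with the replicate block added, 5 of the 19 were called (Hnrnpa2b1, Hnrnph1, Hnrnpu, Sf3a2 and Srsf5). Among the genes with values per library or named from a list, the turned values, without and with the replicate block, were those of Hnrnph2 (0.0265, 0.0452), Hnrnph3 (0.0663, 0.0665), Hnrnpu (0.25, 0.25; called with the block), Sf3b1 (0.0685, 0.0578), Srsf1 (0.12, 0.12), Hnrnpa2b1 (0.29, 0.30; called with the block) and Dhx15 (0.0222, 0.0220). Over the fits that leave out 1 library, log2 fold changes ran from -0.82 to 0.29 for Hnrnph2, -0.44 to 0.10 for Hnrnph3, -0.50 to 0.30 for Hnrnpu, -0.76 to 0.25 for Sf3b1, -0.0476 to 0.59 for Sf3b4, -0.62 to 0.21 for Srsf1, -0.34 to 0.46 for Hnrnpa2b1, -0.0851 to 0.34 for Sf3b3, -0.95 to 0.17 for Snrpb2, -0.48 to 0.0538 for Dhx15 and -1.14 to 0.00060 for Magohb. These ranges pool the fits with and without GC correction, so a change of sign in them need not come from the library left out. Apart from the GC offset and the RefSeq span, the cause of these changes was not tested.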
